A study of Mus musculus with 9 samples.

Results

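The phagocyte NADPH oxidase genes described here are Cybb, Cyba, Ncf1, Ncf4, Rac1 and Rac2, chosen by name as 6 of the 54532 genes in the deposited expression table. The cells were RAW 264.7, a mouse macrophage line derived from an ascites tumour and labelled wild type, in 3 groups of 3 libraries. LPS + H-CDs cells received lipopolysaccharide, a bacterial cell wall component sensed by Toll-like receptor 4, at 1 µg/ml, together with H-CDs at 400 µg/ml. LPS cells received the same LPS alone, and the design text gives 6 h for both. Control cells were untreated, and no group received H-CDs alone. An effect of H-CDs on the LPS response and one on the cells themselves therefore cannot be told apart. H-CDs is not spelled out in the labels; the series title is about a fruit-derived nanozyme with superoxide dismutase activity. Nothing in the labels tells whether the 3 libraries of each group were separate cultures. The p-values below therefore rest on the spread among these libraries, which may be technical, within a single tumour-derived line.

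The oxidase is the enzyme with which macrophages and neutrophils make superoxide against microbes. Cybb encodes the catalytic subunit gp91phox, also called NOX2, and Cyba encodes its membrane partner p22phox; together they form the flavocytochrome that carries electrons from NADPH to oxygen. On activation cytosolic proteins that include p47phox (Ncf1) and p40phox (Ncf4), with a GTP-bound Rac protein, join it at the membrane. Inherited loss of a subunit causes chronic granulomatous disease in humans.

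Depth ran from 14377161 to 16069968 reads a library, read back from the deposited FPKM (fragments per kilobase of gene and per library size). A gene was tested if 3 or more libraries reached 1 FPKM, which all 6 members did, among 11707 genes. One library is unlike its replicates: LPS + H-CDs replicate 1 had 0.490% of its reads on mitochondrially encoded mRNA, while replicates 2 and 3 had 1.62% and 1.64%. Of 11 macrophage markers, 8 were above the filter, while Marco had no read and Mertk and Cd163 stayed at or below 0.0146 FPKM. The summed level of the macrophage list was 2966 to 3102 FPKM with LPS + H-CDs, 3712 to 4089 FPKM with LPS and 2808 to 3129 FPKM in control. Cd14 was the highest marker in both LPS groups and Lyz2 in control, so the sum mostly follows these genes. From control to LPS Cd14 went from 401 to 2226 FPKM, Lyz2 from 1624 to 897 FPKM and Csf1r from 455 to 195 FPKM. Of the 8 tested markers 3 rose and 2 fell in that comparison, where 28.8% of all tested genes rose and 26.8% fell. The summed neutrophil, B cell, fibroblast, epithelial and endothelial lists stayed at or below 1.36 FPKM in every library, and the T cell list, nearly all Lck with Cd8a at 0, had 4.03 to 5.29 FPKM with LPS + H-CDs, 3.81 to 4.47 FPKM with LPS and 0.934 to 1.31 FPKM in control. In bulk RNA, fewer cells of a type and less RNA per cell cannot be told apart.

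Cybb, the catalytic subunit gene, moved furthest of the 6. It rose 3.92-fold with LPS and was lower by 1.51-fold when H-CDs were added, whereas Cyba and Ncf1 passed the test in no comparison on the deposited scale. Rac2 and Ncf4 were lower with LPS + H-CDs than with LPS, and Rac1 was lower with LPS than in control. Of the 6 genes, 3 fell with LPS + H-CDs against LPS and none rose, at an adjusted p under 0.05 in limma; among all tested genes 9.05% fell, 6.54% rose and 15.6% passed in either direction. Against control, 2 rose and 1 fell with LPS, and 55.6% of all tested genes passed (28.8% higher, 26.8% lower). In LPS + H-CDs against control 1 rose and 2 fell, where 52.0% of all tested genes passed (26.7% higher, 25.4% lower). The share of the 6 that passed is thus close to the background in both comparisons with control. Log2 fold changes of LPS + H-CDs against LPS had a median of -0.21 over the 6 genes, beside -0.01 over all tested genes. The 6 genes were chosen with earlier results of these data known, so these counts and medians describe them and test nothing. Log2 fold changes were taken after adding 1 to each FPKM, and the comparisons share libraries. Without any single LPS library, Cybb alone of the 6 passed against LPS.

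**Figure D1:**
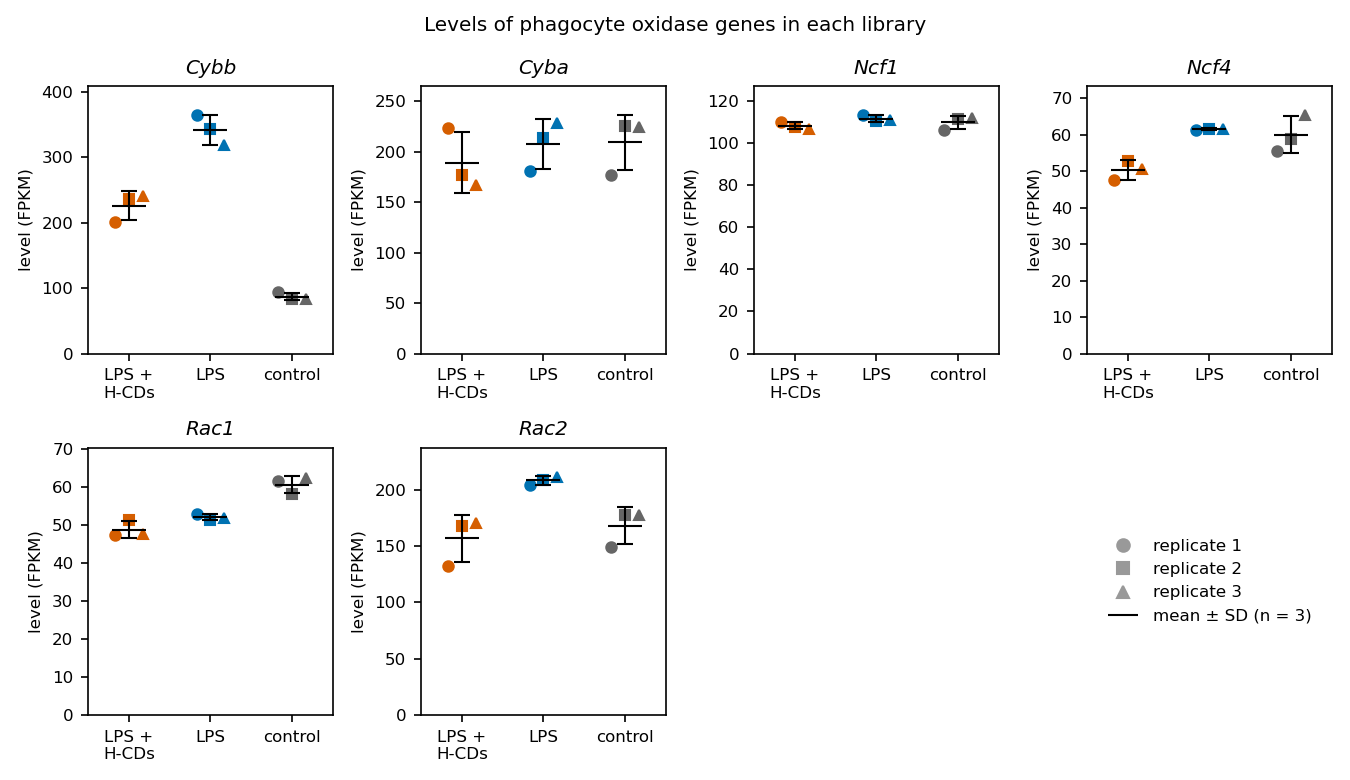
Level in FPKM of the 6 oxidase genes in each library, by group; points are libraries, shaped by replicate number, and black bars are the mean ± SD of 3. The 3 groups of Cybb lie clear of one another, those of Rac1 by a narrow gap, and LPS + H-CDs replicate 1 is the lowest of its group for Cybb, Ncf4, Rac1 and Rac2 and the highest for Cyba and Ncf1.

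Cybb (ENSMUSG00000015340) lies on chromosome X from 9435252 to 9487771 on the minus strand (GRCm38). The stretch around its RefSeq start site is printed because Cybb is the member that moved furthest and because factors known to act on its promoter were measured in the same libraries. The window, chrX:9469275-9469574 on the minus strand of GRCm38.p6, runs from 250 bases before the start site at 9469324 to 50 bases after it, and capitals mark matches to the motifs spelled out below.
Cybb: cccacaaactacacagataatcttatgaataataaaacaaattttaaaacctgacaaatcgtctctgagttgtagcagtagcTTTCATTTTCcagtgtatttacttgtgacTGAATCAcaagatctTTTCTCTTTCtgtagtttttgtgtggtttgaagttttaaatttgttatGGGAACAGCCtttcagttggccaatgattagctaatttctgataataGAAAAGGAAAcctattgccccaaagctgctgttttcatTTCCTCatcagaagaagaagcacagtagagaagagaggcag

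The window held the interferon regulatory factor repeat (GAAA, any 2 bases, GAAA) 3 times, beginning at positions -29, -124 and -168 from the start site, of which the last 2 are on the opposite strand. Of 32851 RefSeq promoter windows of 300 bases, 3.44% held that repeat on either strand. It also held the AP-1 motif TGANTCA at -139, present in 7.81% of windows, the PU.1 core GAGGAA on the opposite strand at 10, present in 28.3%, and a loose kappa B motif (GGG, any 5 bases, CC) at -76, present in 50.8%. Both strands were searched for each motif, and none of these matches overlap. The ETS motif GGAAGT (23.8% of windows), the antioxidant response element core TGACNNNGC (12.4%) and the C/EBP motif TTGCNNAA (10.8%) were not among its letters. Windows were found for 3 of the 6 genes. The Ncf1 window held the interferon regulatory factor repeat once, at -82, and the Cyba window did not hold it; both held the loose kappa B motif 5 times, counting overlapping matches on opposite strands.

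At the membrane, Cybb had 200.4, 237 and 242 FPKM in LPS + H-CDs libraries, 365, 343 and 319 FPKM in LPS libraries and 94.0, 84.0 and 83.6 FPKM in control libraries. Each LPS + H-CDs library lay below every LPS library and above every control library. Against LPS the log2 fold change of LPS + H-CDs was -0.60 ± 0.09 (SE), with a limma adjusted p of 0.00273, and 415 of the tested genes (3.54%) had a lower one. With LPS against control it was 1.96 ± 0.09 (adjusted p = 1.35e-07), and 313 tested genes (2.67%) had a higher one. LPS + H-CDs cells stayed above control, with a log2 fold change of 1.36 ± 0.09 (adjusted p = 1.99e-06). Cybb passed under all 16 alternative settings in each of these comparisons. Without LPS + H-CDs replicate 1, the lowest library of its group, the log2 fold change against LPS was -0.51 (adjusted p = 0.00470). Of the 8 tested genes of the macrophage marker list, 1 rose and 4 fell with LPS + H-CDs against LPS. Their median log2 fold change was -0.53. Among all tested genes 6.54% rose and 9.05% fell, with a median of -0.01. Cd68 was at -0.53 and did not pass (limma adjusted p = 0.189). It had 133 FPKM in LPS + H-CDs replicate 1 and 274 and 296 FPKM in replicates 2 and 3. The part of this list in the Cybb result was not tested.

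Cyba (ENSMUSG00000006519; chromosome 8, 122424776 to 122432930, minus strand) had 224, 177 and 167 FPKM in LPS + H-CDs libraries, 181, 213 and 229 FPKM in LPS libraries and 177, 225 and 225 FPKM in control libraries. The 3 groups overlapped throughout, with a coefficient of variation of 16.1% in LPS + H-CDs, 11.8% in LPS and 13.2% in control. Counting error alone was 1.62 to 1.84% at the 2508 to 4222 reads per library behind these values, several times smaller than the scatter between libraries. The log2 fold change was -0.14 with LPS + H-CDs against LPS (95% interval -0.46 to 0.18, adjusted p = 0.564) and -0.01 with LPS against control (-0.33 to 0.31, adjusted p = 0.964). Between LPS + H-CDs and LPS it was -0.27 without LPS + H-CDs replicate 1 (adjusted p = 0.222), -0.23 without LPS replicate 1, and as little as -0.06 without LPS + H-CDs replicate 3. The first interval includes the values of Ncf4 and Rac2 in that comparison but not that of Cybb.

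The cytosolic subunit p47phox is the organiser that carries the complex to the membrane once it is phosphorylated. Its gene Ncf1 (ENSMUSG00000015950; chromosome 5, 134220053 to 134229625, minus strand) was the steadiest of the 6 on the deposited scale. It had 110.0, 108 and 107 FPKM in LPS + H-CDs libraries, 113, 111 and 111 FPKM in LPS libraries and 106, 111 and 112 FPKM in control libraries. The LPS + H-CDs libraries all lay just below the LPS libraries, yet the log2 fold change was -0.05 (95% interval -0.16 to 0.07, adjusted p = 0.611), and with LPS against control it was 0.02 (-0.09 to 0.14, adjusted p = 0.721). The coefficient of variation was 1.55% in LPS + H-CDs, 1.44% in LPS and 2.98% in control, beside counting errors of 1.30%, 1.32% and 1.19% in the same order. Ncf1 shares 11.1% of its exon bases with Gtf2ird2 on the opposite strand, a gene at 4.45 to 5.62 FPKM. Reads of the shared stretch cannot be told apart without strand.

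Ncf4 encodes p40phox, which binds phosphatidylinositol 3-phosphate on phagosomes. Ncf4 (ENSMUSG00000071715; chromosome 15, 78244801 to 78262580, plus strand) had 47.6, 52.8 and 50.7 FPKM in LPS + H-CDs libraries, 61.3, 61.7 and 61.6 FPKM in LPS libraries and 55.6, 58.9 and 65.5 FPKM in control libraries. Every LPS + H-CDs library was below every LPS and every control library, while LPS libraries fell inside the control range. Against LPS it was lower by 1.22-fold (log2 fold change -0.28 ± 0.07, SE; adjusted p = 0.0262) and against control by 1.19-fold (-0.25 ± 0.07, adjusted p = 0.0165). The first call ended without LPS + H-CDs replicate 1 (adjusted p = 0.0625) or 3 (0.0551) and without any single LPS library (0.0724 to 0.0897), and the second without control replicate 3 (0.0532). Ncf4 in LPS against control had a log2 fold change of 0.04 ± 0.07 (adjusted p = 0.675).

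Rac2, found mainly in blood cells, and the ubiquitous Rac1 are the small GTPases that switch the assembled complex on. Rac2 (ENSMUSG00000033220; chromosome 15, 78559167 to 78572783, minus strand) had 133, 168 and 170.0 FPKM in LPS + H-CDs libraries, 204, 209 and 212 FPKM in LPS libraries and 149, 178 and 177 FPKM in control libraries. LPS libraries stood above both other groups, which overlapped each other. LPS + H-CDs was lower than LPS by 1.33-fold (log2 fold change -0.41 ± 0.11, SE; adjusted p = 0.0306), and LPS was 1.24-fold higher than control (0.31 ± 0.11, adjusted p = 0.0331). Without LPS + H-CDs replicate 1 the log2 fold change against LPS was -0.30, with an adjusted p of 0.0495. The call against LPS ended without any single LPS library (adjusted p 0.0774 to 0.0930) and with no filter on low values (0.0789). The call of LPS against control ended in the same cases (0.0652 to 0.0824 and 0.0768) and without control replicate 1 (0.111). LPS + H-CDs and control differed by a log2 fold change of -0.10 (95% interval -0.35 to 0.14, adjusted p = 0.453).

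Rac1 (ENSMUSG00000001847; chromosome 5, 143503634 to 143528036, minus strand) had 47.5, 51.4 and 47.6 FPKM in LPS + H-CDs libraries, 52.9, 51.4 and 51.9 FPKM in LPS libraries and 61.5, 58.0 and 62.3 FPKM in control libraries. Control libraries lay above all 6 others, and the remaining groups met at replicate 2 of each, with 51.37 FPKM in LPS + H-CDs and 51.43 FPKM in LPS. LPS was lower than control by 1.16-fold (log2 fold change -0.21 ± 0.06, SE; adjusted p = 0.0103) and LPS + H-CDs lower than control by 1.24-fold (-0.31 ± 0.06, adjusted p = 0.00154), while LPS + H-CDs against LPS did not pass (-0.09, 95% interval -0.22 to 0.04, adjusted p = 0.308). Rac1 shares 51.4% of its exon bases with Daglb on the opposite strand, which was at 1.40 to 4.54 FPKM, so reads of the shared stretch cannot be assigned without strand.

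**Figure D2:**
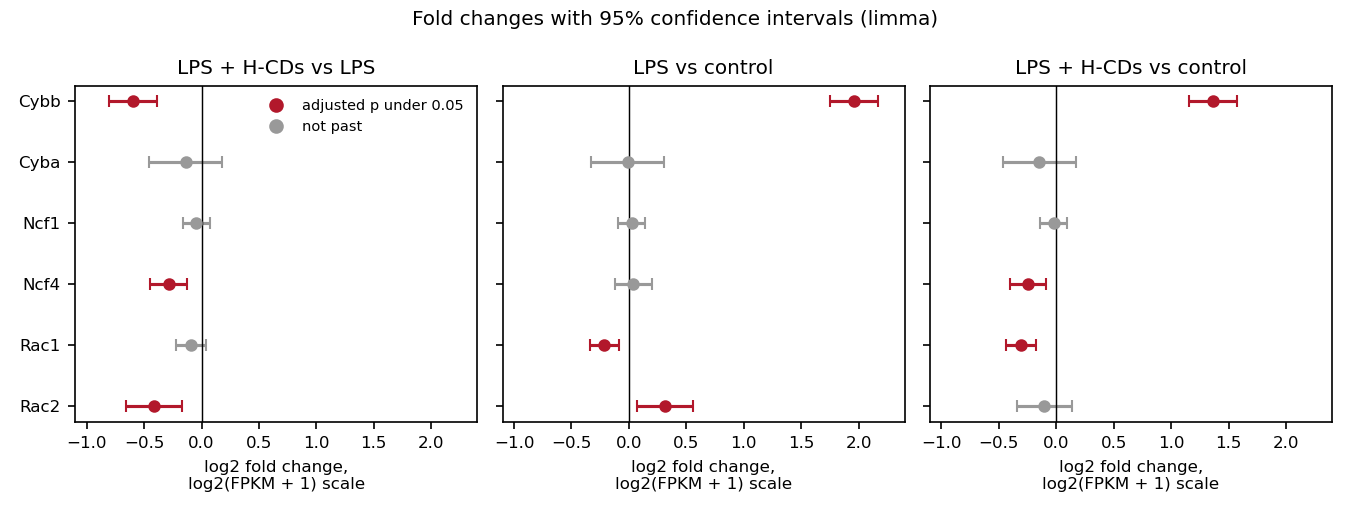
Log2 fold change on the log2(FPKM + 1) scale for the 6 genes in the 3 comparisons; bars are 95% confidence intervals from limma and red marks an adjusted p under 0.05. Cybb, at 1.96 with LPS against control, is the furthest from 0, and Cyba and Ncf1 cross 0 in every panel.

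In the authors' deposited table of LPS + H-CDs against LPS, in which 10.1% of 21576 genes had an adjusted p under 0.05, Cybb had a log2 fold change of -0.58 (adjusted p = 6.19e-10), Rac2 of -0.39 (3.46e-04) and Ncf4 of -0.27 (0.00886). The authors' deposited table gave -0.12 for Cyba, -0.08 for Rac1 and -0.03 for Ncf1, with adjusted p of 0.567, 0.567 and 0.836. It rests on the same reads as the values above. The libraries of LPS + H-CDs and LPS did not overlap in 5 of the 6 genes and in 36.8% of all tested genes. For LPS against control the libraries were apart in 3 of the 6 and in 63.9% of tested genes, and for LPS + H-CDs against control in 3 of the 6 and in 57.7%.

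The order of the levels in FPKM changed with treatment. FPKM is per length of the annotated gene, 5808 bases for Cybb and 1039 for Cyba. The transcripts in use were not measured, so ranks between genes are approximate. With LPS + H-CDs it ran Cybb, Cyba, Rac2, Ncf1, Ncf4, Rac1, and neighbours overlapped from Cybb to Cyba, Cyba to Rac2 and Ncf4 to Rac1. With LPS Cybb stood alone at the top with 342 ± 23.2 FPKM (SD, n = 3), above Rac2 and Cyba, which overlapped at 208 ± 3.74 and 208 ± 24.4 FPKM. In control Cyba (209 ± 27.6 FPKM) and Rac2 (168 ± 16.5 FPKM) led and overlapped, and Cybb, at 87.2 ± 5.90 FPKM, came below Ncf1 at 109.8 ± 3.27 FPKM and above Rac1 and Ncf4, which overlapped. All 6 genes were abundant, with a mean level above that of 90.8 to 99.0% of the tested genes in each group.

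Ratios between genes of the same library do not depend on how libraries were scaled to each other. They were compared in 8 tests, each an exact two-sided permutation test of 3 libraries against 3, for which the smallest possible p is 0.1. Cybb over Cyba was 0.895, 1.34 and 1.45 in LPS + H-CDs libraries, 2.02, 1.61 and 1.39 in LPS libraries and 0.530, 0.373 and 0.372 in control libraries. In FPKM, the catalytic subunit's message was thus below its partner's in control and above it in all LPS libraries. The ratio was 3.95-fold higher with LPS than in control (exact p = 0.1, 0.133 after Benjamini-Hochberg adjustment over the 8 tests). LPS + H-CDs and LPS overlapped in this ratio (difference of log2 ratios -0.46 ± 0.27, SE; exact p = 0.2, adjusted 0.229); the difference ran from -0.59 to -0.25 with 1 library left out, the smallest without LPS + H-CDs replicate 1.

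Ncf1 over Cybb was 0.549, 0.454 and 0.442 in LPS + H-CDs libraries and 0.311, 0.322 and 0.348 in LPS libraries, with no overlap, and 1.13, 1.32 and 1.34 in control libraries. Set against Ncf1, Cybb was therefore lower with LPS + H-CDs than with LPS in every library, by 0.55 ± 0.11 on the log2 scale (SE, n = 3 and 3; exact p = 0.1, adjusted 0.133). Rac1 over Rac2 was 0.358, 0.306 and 0.280 in LPS + H-CDs libraries, 0.259, 0.246 and 0.245 in LPS libraries and 0.413, 0.326 and 0.351 in control libraries. The balance between the GTPase genes was at its lowest with LPS, apart from both other groups (exact p = 0.1 for each comparison with LPS, adjusted 0.133). Ncf4 over Ncf1 was 0.432, 0.491 and 0.475 in LPS + H-CDs libraries, 0.540, 0.558 and 0.555 in LPS libraries and 0.524, 0.530 and 0.585 in control libraries. It was lower with LPS + H-CDs than with LPS without overlap (exact p = 0.1, adjusted 0.133), and LPS and control overlapped (exact p = 0.8, adjusted 0.8).

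**Figure D3:**
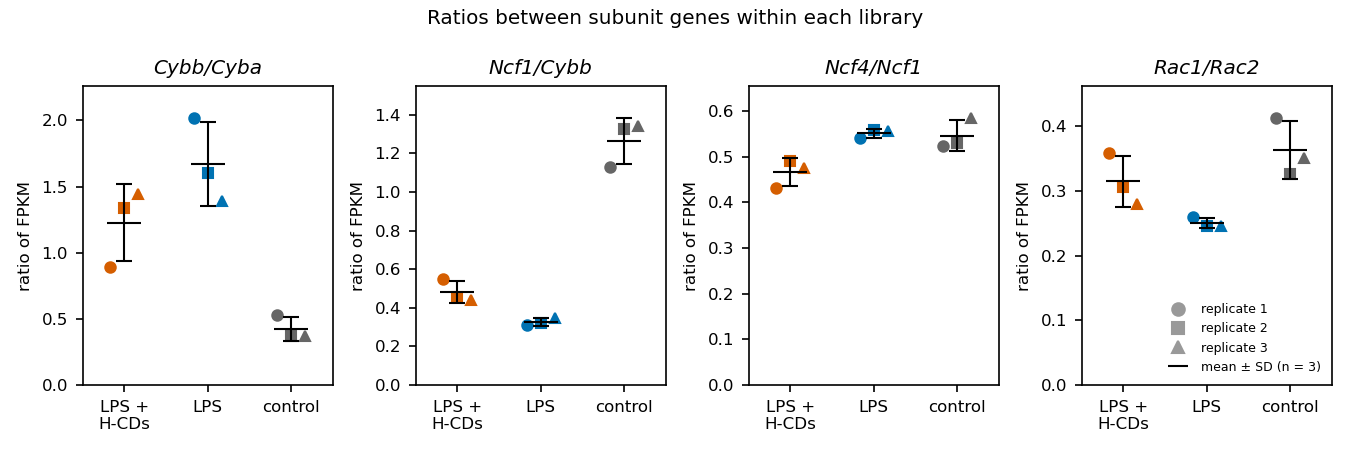
Ratio of FPKM between pairs of oxidase genes within each library, by group; points are libraries, shaped by replicate number, and black bars are the mean ± SD of 3. Cybb over Cyba lies at 0.372 to 0.530 in control and at 1.39 to 2.02 with LPS, and Rac1 over Rac2 is lowest with LPS.

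The genes whose profile over the 9 libraries was most like each member's were found by the root mean square difference of log2(FPKM + 1), each gene centred on its own mean, among 9786 other protein-coding genes tested. For Cybb they were Cd44, the hyaluronan receptor (difference 0.0563), Pcdh7 (0.0577) and Tlr1, a Toll-like receptor subunit (0.0879), against a range of 2.11 for Cybb itself. Cd44 averaged 45.5 FPKM with LPS + H-CDs, 72.3 FPKM with LPS and 18.0 FPKM in control. For Rac2 they were Arhgap1 (0.0518), Dcakd (0.0548) and Noc4l (0.0710). For Ncf4 they were Grb2 (0.0470), Ly6e (0.0480) and Nelfa (0.0516), for Ncf1 Mpdu1 (0.0255), Ptdss1 (0.0291) and Rpp14 (0.0350), for Cyba Ctu2 (0.0523), Rpl11 (0.0634) and U2af1 (0.0797), and for Rac1 Faap24 (0.0305), Tomm34 (0.0384) and Poldip2 (0.0391). The members themselves ranged over 0.10 (Ncf1) to 0.67 (Rac2), so a small difference says less for them than for Cybb.

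Nrros, whose protein binds the oxidase's catalytic subunit in mouse phagocytes and promotes its degradation, averaged 28.3 ± 2.75 FPKM with LPS + H-CDs, 39.9 ± 1.18 FPKM with LPS and 49.3 ± 2.97 FPKM in control (SD, n = 3 each). It fell with LPS + H-CDs against LPS (log2 fold change -0.48, adjusted p = 0.00378) and with LPS against control (-0.30, adjusted p = 0.0104). Cybc1, whose product is a chaperone of the flavocytochrome, had 12.2 ± 0.907, 11.9 ± 0.340 and 12.5 ± 0.770 FPKM in LPS + H-CDs, LPS and control and passed in neither comparison (adjusted p = 0.793 and 0.462), nor did the small GTPase gene Rap1a (0.522 and 0.138). In this list of components and maturation factors, 0 of 3 tested genes rose and 1 fell with LPS + H-CDs against LPS, and 0 rose and 1 fell with LPS against control. Among all tested genes 6.54% rose and 9.05% fell in the first comparison, and 28.8% rose and 26.8% fell in the second. Those shares also stand beside the lists below. The proton channel gene Hvcn1 stayed at or under 0.0840 FPKM.

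Genes acting on the cytosolic subunits moved in both directions. Of 12 tested kinases and lipid signalling genes, 2 rose and 4 fell with LPS + H-CDs against LPS (median log2 fold change -0.07, beside -0.01 for all tested genes), and 2 rose and 2 fell without any 1 LPS + H-CDs library or without LPS replicate 1 or 2. Those that rose were Pla2g4a, the cytosolic phospholipase A2 that releases arachidonic acid (55.7 ± 1.85 FPKM with LPS + H-CDs and 35.5 ± 2.47 FPKM with LPS; adjusted p = 3.34e-04), and Prdx6, a peroxiredoxin with phospholipase activity (65.2 ± 2.05 and 41.9 ± 0.813 FPKM; 3.98e-04). Prkcd, a protein kinase C that phosphorylates p47phox, fell to 39.7 ± 0.987 FPKM with LPS + H-CDs, against 54.0 ± 1.75 FPKM with LPS (adjusted p = 0.00152). In LPS against control 5 rose and 5 fell; Prkcd rose (log2 fold change 0.89 ± 0.06, SE) and the kinase genes Mapk14 (-1.02 ± 0.05) and Pak1 (-0.99 ± 0.06) fell, all with an adjusted p of at most 1.63e-06.

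Among 13 tested genes that switch Rac on or off, 0 rose and 6 fell with LPS + H-CDs against LPS, and their median log2 fold change was -0.27 beside -0.01 for all tested genes; with a library left out 0 rose and 4 to 7 fell. Prex1, a Rac exchange factor, was lower (log2 fold change -0.55 ± 0.08, SE; adjusted p = 0.00252), Abr, which stimulates GTP hydrolysis by Rac, by 1.41-fold (-0.48 ± 0.07, adjusted p = 0.00234) and Arhgef7, another exchange factor, by 1.39-fold (-0.46 ± 0.06, adjusted p = 0.00119). Both activators and an inactivator of Rac were thus among those that fell. Against control 4 rose and 3 fell with LPS, Abr rising 2.64-fold and Arhgef7 1.55-fold and Arhgef6 falling by 1.93-fold (adjusted p at most 2.59e-05); 55.6% of all tested genes passed there. These 7 calls became 4 without control replicate 1 or 3 or any 1 LPS library. Of 5 tested related GTPases, 0 rose and 1 fell with LPS + H-CDs against LPS, namely Rhoq (10.8 ± 0.575 FPKM, against 17.2 ± 0.0838 FPKM with LPS; adjusted p = 9.60e-04). Without LPS + H-CDs replicate 3, 1 rose and 1 fell. Against control 2 rose and 1 fell with LPS: Rhoq (adjusted p = 1.05e-04) and Cdc42 (0.00749) rose, and Rac3 fell to 1.81 ± 0.261 FPKM with LPS, against 5.22 ± 1.26 FPKM in control (8.65e-04). Cdc42 lost its call rescaled to TPM or scaled to total reads (log2 fold change 0.03 and 0.09, in place of 0.37).

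Other NADPH oxidases were barely represented. Nox3, Nox4, Noxa1, Duox2, Duoxa1 and Duoxa2 had no read in any library, which allows up to 3 reads in each, and Nox1, Noxo1 and Duox1 stayed under the filter. Of the 3 tested genes of that list, 0 rose and 1 fell with LPS + H-CDs against LPS: Sh3pxd2b, an organiser protein related to p47phox, fell to 12.8 ± 1.29 FPKM, against 18.9 ± 1.28 FPKM with LPS (adjusted p = 0.00466). In LPS against control 2 rose and 0 fell, Sh3pxd2b (log2 fold change 0.79, adjusted p = 6.83e-05) and Sh3pxd2a (0.20, adjusted p = 0.0479); the log2 fold change of Sh3pxd2a was -0.11 rescaled to TPM and -0.06 scaled to total reads. The Sh3pxd2a call was also lost without control replicate 2 or 3, any 1 LPS library or LPS + H-CDs replicate 2 or 3 (adjusted p 0.0571 to 0.158). In edgeR, with no filter, in fits of 2 groups only and with replicate number as a block, 1 gene of the list rose in place of 2.

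Of 12 tested transcription factors known to act on Cybb and the cytosolic subunit genes, 3 rose and 4 fell with LPS + H-CDs against LPS, and their median log2 fold change was -0.14 beside -0.01 for all tested genes; 0 to 2 rose and 4 fell with a library left out. Irf8, an interferon regulatory factor known to activate Cybb in myeloid cells, averaged 36.9 ± 1.14 FPKM with LPS + H-CDs, 58.2 ± 0.917 FPKM with LPS and 13.4 ± 0.145 FPKM in control. It was lower by 1.58-fold with LPS + H-CDs than with LPS (adjusted p = 6.53e-05) and 4.36-fold higher with LPS than in control (1.53e-09). Cybb had 1.51-fold and 3.92-fold in the same comparisons, which share the LPS libraries. Whether Irf8, any other factor of this list or the motifs in the Cybb window bear on Cybb in these cells was not tested. The NF-kB gene Nfkb1 and the repressor gene Bcl6 also fell with LPS + H-CDs against LPS (log2 fold change -0.45 and -0.72, adjusted p = 0.00191 and 0.00131), as did Rel (-0.56, 0.00273). The 3 that rose were the C/EBP family genes Cebpe (0.43, adjusted p = 0.0348), Cebpa (0.40, 0.0363) and Cebpb (0.45, 0.0491). In LPS against control 6 rose and 2 fell, led by Irf8, Nfkb1 (6.41-fold) and Rel (7.43-fold), with an adjusted p of at most 8.45e-09. Among all tested genes 55.6% passed in that comparison and 15.6% with LPS + H-CDs against LPS. Spi1, which encodes PU.1, had 119 ± 1.65 FPKM with LPS + H-CDs, 137 ± 10.7 FPKM with LPS and 119 ± 8.50 FPKM in control and passed in neither comparison (adjusted p = 0.117 and 0.0518).

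**Figure D4:**
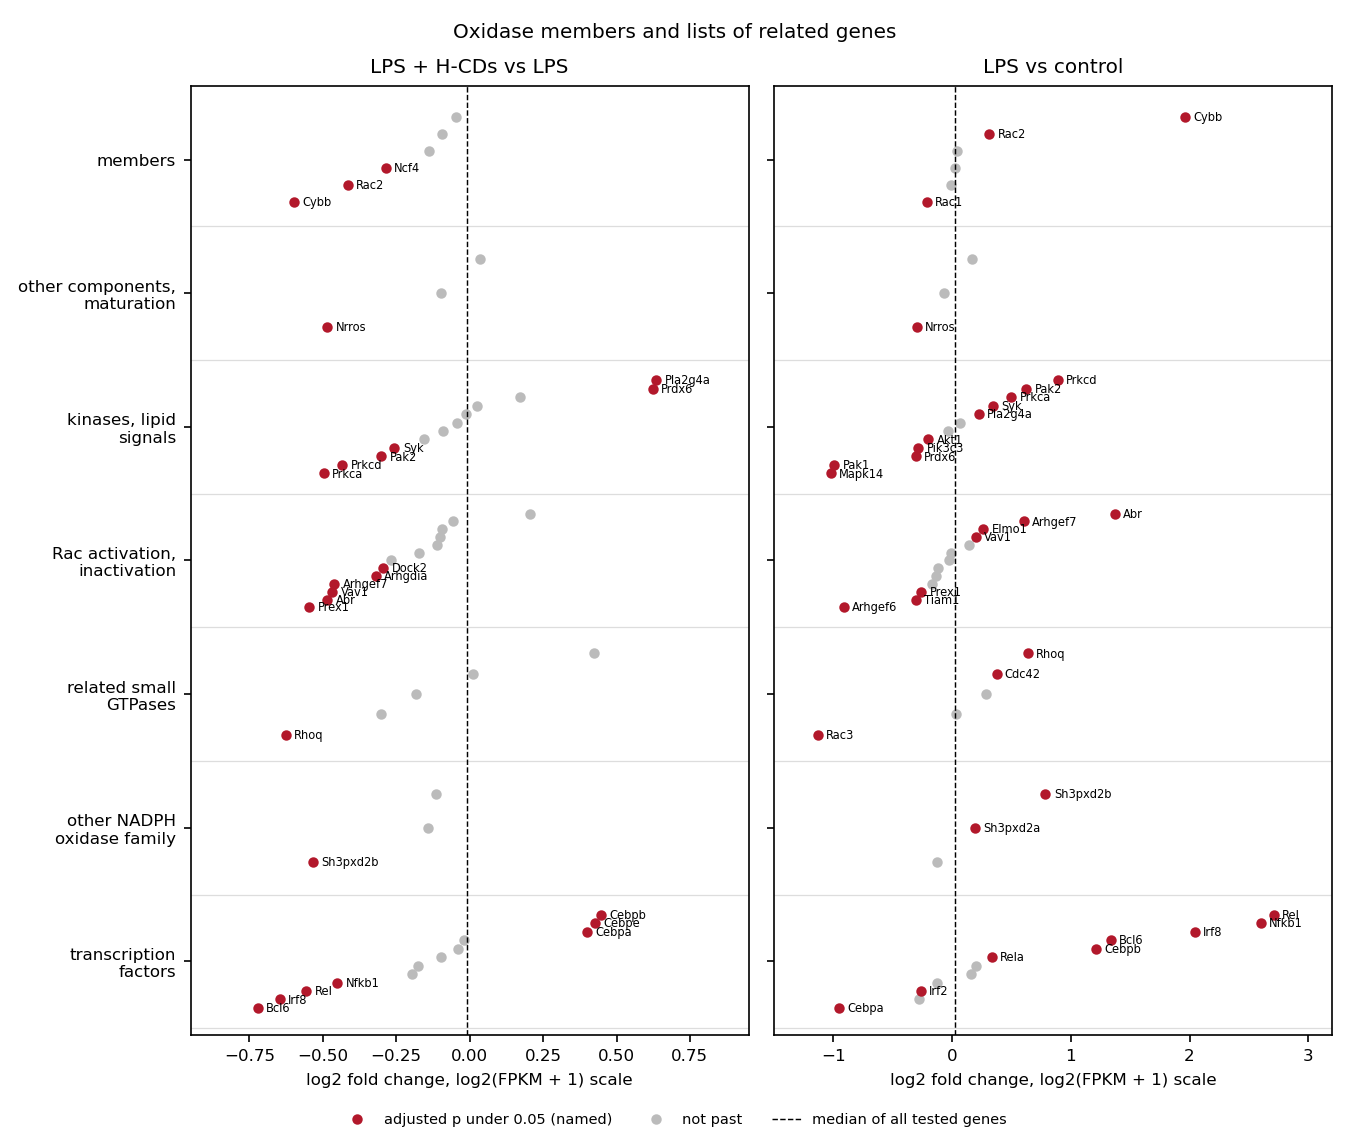
Log2 fold change of each tested gene of the members and of 6 lists of related genes; red marks an adjusted p under 0.05, with the gene's name, and the dashed line is the median of all tested genes. Pla2g4a (0.63) and Prdx6 (0.62) lie furthest to the right in the left panel while Cybb, Rac2 and Ncf4 lie at -0.60 to -0.28.

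The scale between libraries set the direction of some of the small differences of LPS from control, while Rac1 was lower on every scale. Over all tested genes, LPS against control had a median of -0.27 when FPKM was rescaled to TPM (to the same sum in each library) and of -0.22 when scaled to total reads, beside 0.03 as deposited. On these scales Ncf1 had log2 fold changes of -0.32 and -0.26 and Ncf4 of -0.30 and -0.25, all past the threshold and all near the median shift, in place of 0.02 and 0.04. Cyba had -0.36 (adjusted p = 0.0326) and -0.30 (0.0941). Rac2 had -0.03 and 0.02, so its call against control ended, and Rac1 had -0.56 and -0.50. On both scales the Rac switch list had 2 genes higher and 7 lower and the transcription factors 5 higher and 4 lower. Of all 11707 tested genes 1678 were higher and 5665 lower rescaled to TPM, and 1903 and 5191 scaled to total reads. Most calls over all genes were thus lower on these scales too. Cybb rose on every scale, with 1.62 rescaled to TPM and 1.67 scaled to total reads. For LPS + H-CDs against LPS the scales moved the members less: Cybb was at -0.56 and -0.52 with its call kept, while Rac2 (-0.33, adjusted p = 0.0638) and Ncf4 (-0.20, 0.0824) lost theirs when scaled to total reads.

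**Figure D5:**
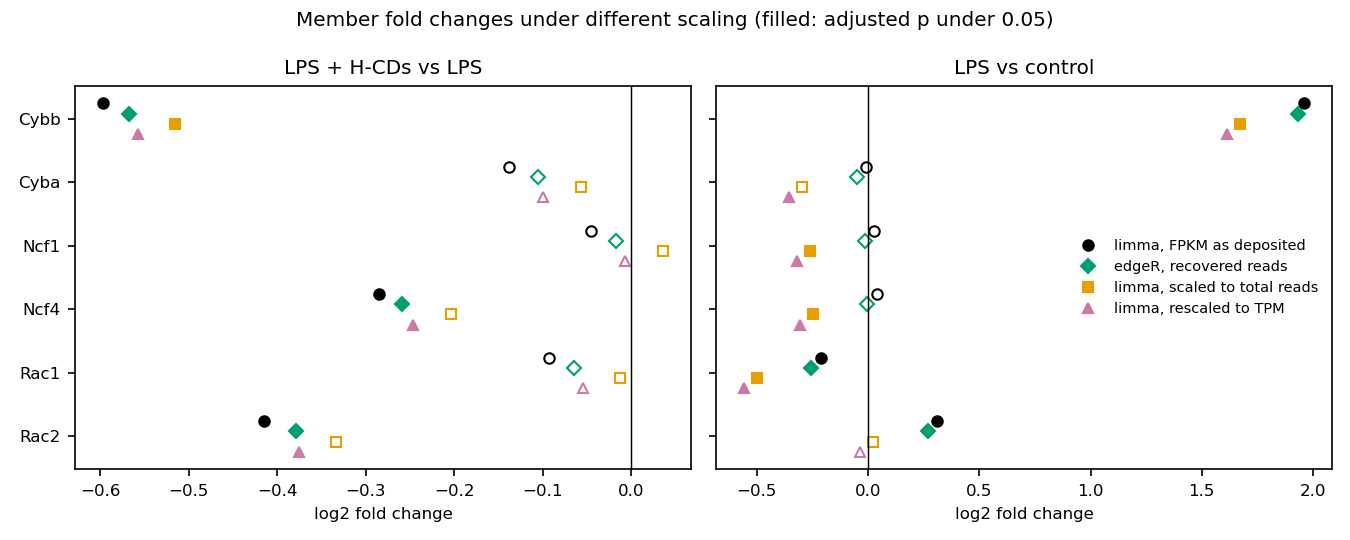
Log2 fold change of the 6 genes under 4 ways of scaling the libraries, for LPS + H-CDs against LPS and for LPS against control; filled symbols have an adjusted p under 0.05. Cybb keeps its call and direction on each scale, whereas Ncf1, Ncf4 and Rac2 shift across 0 or out of the threshold against control.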

How the data were processed

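Libraries were made from poly-A selected RNA, per the labels' protocols. The deposited expression table holds FPKM, as its name from the authors says. A second deposited table holds, per its headers, the authors' scaled signal per library, a log2 fold change, a p-value and an adjusted p for LPS + H-CDs over LPS. Columns named CD were read as H-CDs, the only remaining group. The build was GRCm38 (mm10) per the submitters' processing notes; no aligner, counting tool, strand setting or test is named in the sources used here.

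Multiplied by gene length, 100% of FPKM values above 0 were whole reads times a constant of the library (tolerance 0.01 of a read), so reads were recovered. Genes reaching 1 FPKM in 3 or more of the 9 libraries entered 1 limma 3.58.1 fit on log2(FPKM + 1), with a trend in the prior variance and 6 residual degrees of freedom. P-values were adjusted by Benjamini-Hochberg over 11707 genes, and 0.05 was the threshold; fold changes in words are ratios of mean FPKM, and log2 values understate changes of low genes. Exact permutation tests of 3 libraries against 3 have a smallest p of 0.1. edgeR 4.0.16 (quasi-likelihood, TMM) was run on the recovered reads as an alternative, and the fits were tested on simulated data. Members and lists were chosen with earlier results of these data known. Named from each list were up to 3 genes with the smallest adjusted p among those called, in LPS + H-CDs against LPS and in LPS against control; Cybc1, Rap1a, Hvcn1, Spi1, the C/EBP genes, Rel against LPS and the genes with no read were added after their values were seen. Alternatives were another pseudocount (0.1), no filter, rescaling to TPM or total reads, edgeR, fits of 2 groups only, replicate number as a block, and each library left out. Sequences are from RefSeq. One gene of the component list is not reported here.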

Additional observations from a re-analysis of the deposited data

How the results depend on the processing

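Over 288 refits of the 6 genes (16 alternatives, 3 comparisons), 250 kept direction and side of the threshold, 18 lost the call, 6 gained it and 14 changed sign; the cause was not tested. With LPS + H-CDs against LPS, 1 member passed when scaled to total reads in place of 3, and 1 to 3 passed when each library was left out; Cybb passed every time. With LPS against control, 5 passed rescaled to TPM, where 7343 of all 11707 tested genes passed, and 2 to 3 with libraries left out. With LPS + H-CDs against control, 6 passed rescaled to TPM and 5 scaled to total reads, and 2 to 3 with libraries left out. On those 2 scales 7012 and 6561 of all 11707 tested genes passed in that comparison, so most genes did.

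Signs turned for Ncf1 with LPS + H-CDs against LPS scaled to total reads (0.036). With LPS against control they turned rescaled to TPM for Ncf1 (-0.32), Ncf4 (-0.30), Rac2 (-0.035) and Sh3pxd2a (-0.11), scaled to total reads for Ncf1 (-0.26), Ncf4 (-0.25) and Sh3pxd2a (-0.058), and in edgeR for Ncf1 (-0.015) and Ncf4 (-0.0035). With each library left out, LPS against control ran from -0.12 to 0.087 for Cyba, from -7.5e-05 to 0.040 for Ncf1 and from -0.014 to 0.10 for Ncf4, and LPS + H-CDs against control from -0.19 to 0.013 for Rac2. The log2 Ncf4/Ncf1 ratio of LPS against control ran from -0.014 to 0.065, below 0 without control replicate 1 or 2.

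Over all genes, LPS against control had 3372 higher and 3136 lower calls, 1678 and 5665 rescaled to TPM, and 1903 and 5191 scaled to total reads; LPS + H-CDs against control had 3120 and 2970, then 1647 and 5365, then 2035 and 4526; LPS + H-CDs against LPS had 766 and 1060, then 853 and 709, then 1197 and 689. It had 1826 calls in all, 2123 in edgeR, 1373 with no filter on low values, and 1022 to 1760 with libraries left out (1098 without LPS replicate 1, 1022 without LPS replicate 2, 1185 without LPS + H-CDs replicate 2). Deviations of same-numbered libraries correlated at -0.12 to 0.20. Differently numbered libraries were not compared, so these values do not settle whether replicate numbers pair the libraries. With replicate number as a block, 3 members passed in each comparison and the count over all genes for LPS + H-CDs against LPS was 1485; the ratios kept their values, with exact p of 0.25 to 0.75, where 0.25 is the smallest possible.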
